A study of Sus scrofa with 23 samples.

Results

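Decorin (DCN), biglycan (BGN), lumican (LUM) and PRELP are small leucine-rich proteoglycans of the cartilage matrix. They were taken as every probe set, a group of short oligonucleotides that reads 1 transcript, whose annotated symbol is exactly 1 of these 4. The rule found 5 probe sets for 4 genes, of 24123 probe sets and 6765 gene symbols on the Affymetrix Porcine Genome Array. DCN (Entrez gene 396957) has 2 probe sets, of which 1 is bright and the other dim, while BGN (397396), LUM (100152607) and PRELP (100511032) have 1 each.

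The study measured RNA of articular cartilage from pigs of a Duroc x Pietrain crossbreed population, in animals affected and not affected by osteochondrosis, a disorder of cartilage and bone formation in growing joints. The series describes the animals as sib-pairs, and the labels do not pair the samples. The groups were affected femur (4 samples), non-affected femur (4 samples from 5 arrays), affected humerus (7 samples from 8 arrays) and non-affected humerus (6 samples). The femoral cartilage came from the medial condyle and the humeral cartilage from the medial part of the condyle. Age and sex are not among the labels used here. Nothing in the labels states that the samples of a group were separate animals, so a p-value here measures only the spread between these samples, which may in part be technical.

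Small leucine-rich proteoglycans have a core protein built of leucine-rich repeats, to which glycosaminoglycan chains can be attached. In cartilage they bind the surface of collagen fibrils and act on fibril assembly. DCN and BGN carry chondroitin or dermatan sulphate and bind growth factors such as transforming growth factor beta, LUM can carry keratan sulphate, and PRELP has a basic amino-terminal stretch that binds heparan sulphate. In the pig RefSeq annotation (Sscrofa11.1), DCN and LUM are neighbours on chromosome 5, in the gene order BTG1, DCN, LUM, KERA, EPYC. PRELP lies on chromosome 9 between FMOD and OPTC, and BGN lies on chromosome X. The array table names no genome build, so no coordinates are given, and the exon or UTR that each probe set reads is not annotated in the sources used here.

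Values are log2 intensities as deposited, so a difference of 1 is a factor of 2. In the values as deposited, LUM was the only 1 of the 4 genes with a called difference, and that difference was between the joints. Over all tested probe sets 51.8% were called between the joints. Rescaled values, given with the joint comparison, added BGN and PRELP. LUM averaged 7.05 ± 2.13 in femoral and 10.03 ± 1.67 in humeral cartilage (SD, n = 8 and 13). DCN, BGN and PRELP gave bright, narrowly spread signals in all 4 groups. Whether signals this bright show differences as fully as dimmer ones, such as that of LUM, was not tested. No member differed between affected and non-affected cartilage past an adjusted p of 0.05.

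The samples had the marker genes of cartilage. Of 15 listed markers 6 are named on the array, and none was at the array's floor of 4 in any sample. Among the 4 groups, mean log2 intensity ran between 11.60 and 12.25 for COL2A1 (type II collagen), between 13.25 and 13.72 for ACAN (aggrecan), and between 8.41 and 10.04 for SOX9 (a chondrocyte transcription factor). The mean over the 6 markers ran from 11.12 to 12.34 over the samples. Markers of vessels, macrophages, bone and osteoclasts were detected as well, at levels that differed among the samples and are given beside LUM.

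Femoral and humeral arrays also differed in controls that are not pig RNA. BioB, BioC, BioDn and CreX are bacterial or phage transcripts added in fixed amounts before hybridisation. Their means were 9.72, 11.002, 12.64 and 13.78 on the 9 femoral arrays, against 8.18, 9.49, 11.63 and 13.45 on the 14 humeral arrays, and the arrays of the joints did not overlap for any of the 4. The gap was 1.54 for BioB and 0.34 for CreX, so it was smaller for the brighter controls. Femoral arrays had 3.29% to 4.50% of probe sets at the floor, against 1.33% to 2.35% of humeral arrays. Joint and array handling therefore cannot be told apart in any comparison of femur with humerus, while affected and non-affected samples of 1 joint lie on arrays whose controls overlapped. Non-affected humerus 5 stood apart, with a first principal component score of 28.6 against -56.1 to -1.2 on the other humeral arrays and 30.2 to 60.6 on the femoral arrays. Its BioB value of 8.39 was on the humeral side. The LUM differences that include it are given with and without it, while group means, marker counts and likeness values include it.

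**Figure D1:**
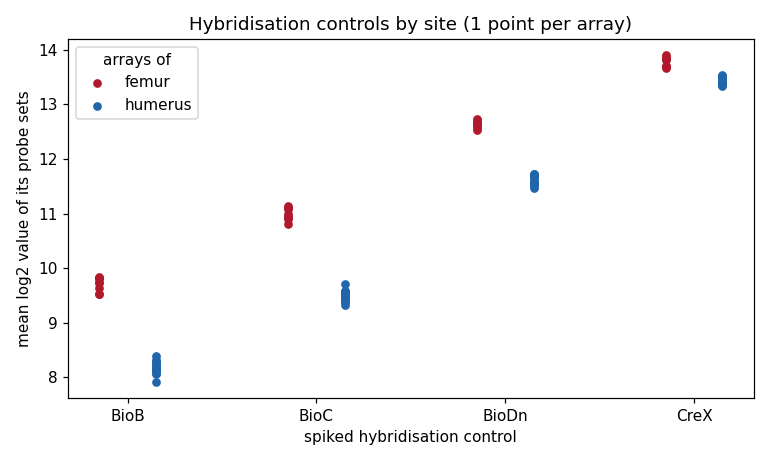
Mean log2 intensity of 4 spiked hybridisation controls, with 1 point per array (9 femur, left of each pair, and 14 humerus). Femoral arrays lie above humeral arrays for every control, by 1.54 for BioB and by 0.34 for CreX.

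The members span the range of the array. The bright DCN probe set averaged 13.04, BGN 13.37 and PRELP 13.01, values that 0.571%, 0.425% and 0.583% of probe sets exceeded. LUM averaged 8.89, which 11.996% of probe sets exceeded, and its values over the samples spanned 7.42 log2 units, from 4.51 to 11.93. The span was 1.08 for DCN, 0.64 for BGN and 1.32 for PRELP. The means of the bright DCN probe set, BGN and PRELP lay between those of the controls BioDn and CreX. The gap between the joints was 1.01 for BioDn and 0.34 for CreX, against 1.54 for the dimmer BioB. The part of brightness in the narrow spans and small differences of DCN, BGN and PRELP was not tested. The dim DCN probe set was at the floor on 12 of 23 arrays and reached 4.74 at most, so it did not pass the filter on low values. The other 4 of the 5 probe sets passed and were tested, and DCN values from here on are from the bright one. Brightness also depends on the probes, so these values do not rank the amounts of the 4 transcripts.

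**Figure D2:**
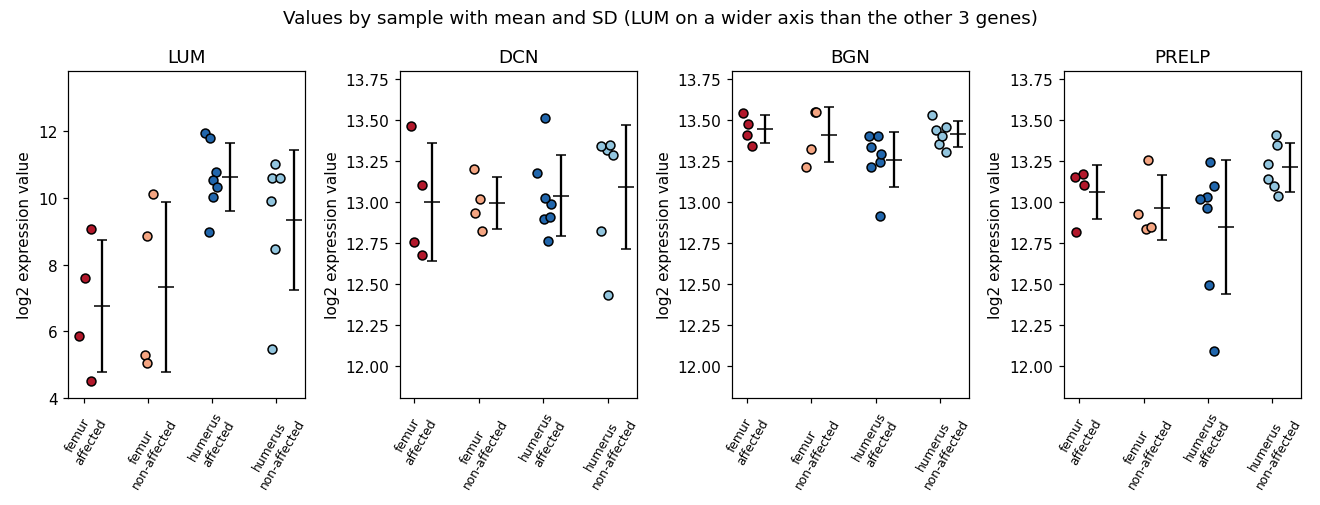
Log2 intensity of the 4 tested probe sets in each sample, by joint and status, with affected left of non-affected cartilage; lines mark group means. LUM spans 4.51 to 11.93 and lies lowest in femoral samples, while DCN, BGN and PRELP stay between 12.09 and 13.55.

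Affected cartilage was compared with non-affected cartilage over both joints, then within each joint. DCN, which binds type I and II collagen fibrils, had values of 13.46, 12.75, 12.68 and 13.10 in affected femur, against 12.82, 13.02, 12.93 and 13.20 in non-affected femur. Affected humerus had a lowest, median and highest DCN value of 12.76, 12.98 and 13.51, against 12.43, 13.30 and 13.35 in non-affected humerus. All 4 groups overlapped, and their means lay between 12.99 and 13.09. DCN differed by -0.03 over both joints (95% interval -0.29 to 0.23, adjusted p = 0.967), by 0.00 in the femur (-0.43 to 0.44, adjusted p = 0.993) and by -0.05 in the humerus (-0.40 to 0.29, adjusted p = 0.970). The femoral interval is the widest of the 3, and differences within these intervals remain possible with these samples.

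BGN, the close relative of DCN that is found near the cells, had values of 13.48, 13.55, 13.34 and 13.41 in affected femur, against 13.32, 13.55, 13.21 and 13.55 in non-affected femur. In affected humerus its lowest, median and highest values were 12.91, 13.29 and 13.40, against 13.31, 13.42 and 13.53 in non-affected humerus. All 7 affected humeral samples were below the non-affected humeral mean, and 4 were below every non-affected sample of that joint. By limma, the BGN difference was -0.16 in the humerus (-0.34 to 0.03, adjusted p = 0.768), 0.03 in the femur (-0.20 to 0.27, adjusted p = 0.887) and -0.08 over both joints (-0.23 to 0.07, adjusted p = 0.798). None passed the threshold. Without affected humerus 2, the lowest sample, the humeral difference was -0.10 and that over both joints -0.0468.

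PRELP, known as an anchor between basement membrane and connective tissue, had the smallest unadjusted p of the members for status, in the humerus. Its values were 13.17, 13.10, 12.81 and 13.15 in affected femur, against 12.83, 13.26, 12.84 and 12.93 in non-affected femur. Affected humerus had a lowest, median and highest PRELP value of 12.09, 13.02 and 13.25, against 13.04, 13.18 and 13.41 in non-affected humerus. Of the 7 affected humeral samples 5 were below every non-affected one, and affected humerus 2 was the lowest at 12.09, followed by affected humerus 4 at 12.49. The PRELP difference in the humerus was -0.36 (SE 0.152, interval -0.68 to -0.05), with a limma p of 0.0272 that became 0.759 after adjustment over the 16799 probe sets tested; 3.44% of them had a smaller p. It was -0.24 without affected humerus 2, 0.10 in the femur (-0.31 to 0.50, adjusted p = 0.815) and -0.19 over both joints (-0.45 to 0.08, adjusted p = 0.766), which was -0.10 without affected humerus 2. With 1 sample left out in turn, the femoral PRELP difference ran from 0.051 to 0.19.

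LUM had values of 7.61, 4.51, 5.87 and 9.06 in affected femur, against 5.28, 5.06, 10.11 and 8.85 in non-affected femur. Affected humerus had a lowest, median and highest LUM value of 8.97, 10.53 and 11.93, against 5.48, 10.24 and 11.02 in non-affected humerus. Of the 7 affected humeral samples 6 were above the non-affected mean, and the groups overlapped in both joints. The LUM difference was 1.28 in the humerus (SE 0.951, -0.70 to 3.26, adjusted p = 0.819), -0.56 in the femur (SE 1.21, -3.08 to 1.96, adjusted p = 0.823) and 0.58 over both joints (-0.997 to 2.15, adjusted p = 0.877). Without non-affected humerus 5, the sample at 5.48, the humeral difference was 0.51 and that over both joints 0.07. In the femur the LUM difference was 0.19 without affected femur 2 and 0.37 without non-affected femur 4. Leaving out either of these samples thus reversed its sign. The LUM intervals are wide, and they hold differences of more than 1 log2 unit in both directions in the femur.

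Status was thus called for 0 of the 4 tested probe sets over both joints, 0 in the humerus and 0 in the femur. The same calls over all 16799 tested probe sets came to 0%, 0% and 1.14%. By unadjusted limma p under 0.05, 1223 probe sets passed over both joints, 1100 in the humerus and 3422 in the femur. The status difference in the femur minus that in the humerus was called for 0 of 4 members, and for 0.268% of all probe sets. This interaction was 0.06 for DCN (adjusted p = 0.919), 0.19 for BGN (adjusted p = 0.459), -1.84 for LUM (SE 1.54, -5.05 to 1.36, adjusted p = 0.510; -1.07 without non-affected humerus 5) and 0.46 for PRELP (-0.06 to 0.97, adjusted p = 0.310).

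Femur was then compared with humerus, with status in the model. LUM was lower in the femur, 7.80-fold (difference -2.96, SE 0.778, interval -4.58 to -1.35, adjusted p = 0.00351). The 8 femoral samples lay between 4.51 and 10.11, against 5.48 to 11.93 for the 13 humeral samples. All 8 femoral samples were below the humeral median and 8 of 13 humeral samples were above every femoral one, so the joints overlapped in part. The LUM difference was past the threshold with each sample left out in turn, and was -3.36 without non-affected humerus 5. A sign of RNA quality, the signal of 3' over 5' actin probe sets, averaged 2.78 ± 0.17 on femoral and 3.17 ± 0.32 on humeral arrays (log2, SD, n = 9 and 14), with overlapping ranges of 2.43 to 3.07 and 2.63 to 3.55. For GAPDH it averaged 0.70 ± 0.07 on femoral and 0.82 ± 0.17 on humeral arrays (SD), and the part of these in the LUM difference was not tested. Among the 16799 tested probe sets 0.220% had a larger absolute difference.

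LUM alone among the 4 tested members was called between the joints, while 51.8% of all tested probe sets were. A call by itself therefore does not set LUM apart from other probe sets. DCN differed by -0.07 (-0.34 to 0.20, adjusted p = 0.681), BGN by 0.09 (-0.06 to 0.25, adjusted p = 0.296) and PRELP by -0.01 (-0.28 to 0.26, adjusted p = 0.955). Of the calls over all probe sets 34.03% were higher in the femur as deposited, 55.0% after quantile normalisation and 56.7% after centring each array on its median. The median difference of all tested probe sets was -0.12 as deposited, 0.03 after quantile normalisation and 0.05 after centring. BGN was higher in the femur under both scalings, by 0.38 (adjusted p = 0.00014) and 0.26 (adjusted p = 0.0082), and PRELP by 0.29 (adjusted p = 0.044) after quantile normalisation. DCN and PRELP thus changed sign with the scaling, and the LUM call did not depend on it.

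Within affected cartilage LUM was lower in the femur, 14.5-fold (difference -3.86, SE 1.07, interval -6.09 to -1.62, adjusted p = 0.00826). All 4 affected femoral samples were below the affected humeral mean and 3 were below every affected humeral sample. LUM was again the 1 called member of 4, against 38.5% of all probe sets. BGN differed by 0.19 (adjusted p = 0.146), PRELP by 0.21 (adjusted p = 0.345) and DCN by -0.04 (adjusted p = 0.882). After quantile normalisation BGN (0.50, adjusted p = 0.00035) and PRELP (0.49, adjusted p = 0.017) were called higher in affected femur, and after centring BGN was (0.35, adjusted p = 0.017). DCN turned to 0.23 and 0.12 under these scalings, without a call.

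Within non-affected cartilage the LUM difference was -2.01 (SE 1.104, interval -4.31 to 0.29, adjusted p = 0.158), and 3 of 4 femoral samples were below the humeral mean. No member was called there, against 36.6% of all probe sets. Without non-affected humerus 5 the LUM difference was -2.79 and passed the threshold (adjusted p = 0.032). BGN differed by -0.01 (adjusted p = 0.9749), PRELP by -0.25 (adjusted p = 0.287) and DCN by -0.10 (adjusted p = 0.716). After quantile normalisation BGN was called higher in non-affected femur (0.26, adjusted p = 0.035), and after centring it was 0.18 without a call. That LUM passed in affected and not in non-affected cartilage does not show that the joints differed by unequal amounts, since the interaction was not called.

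**Figure D3:**
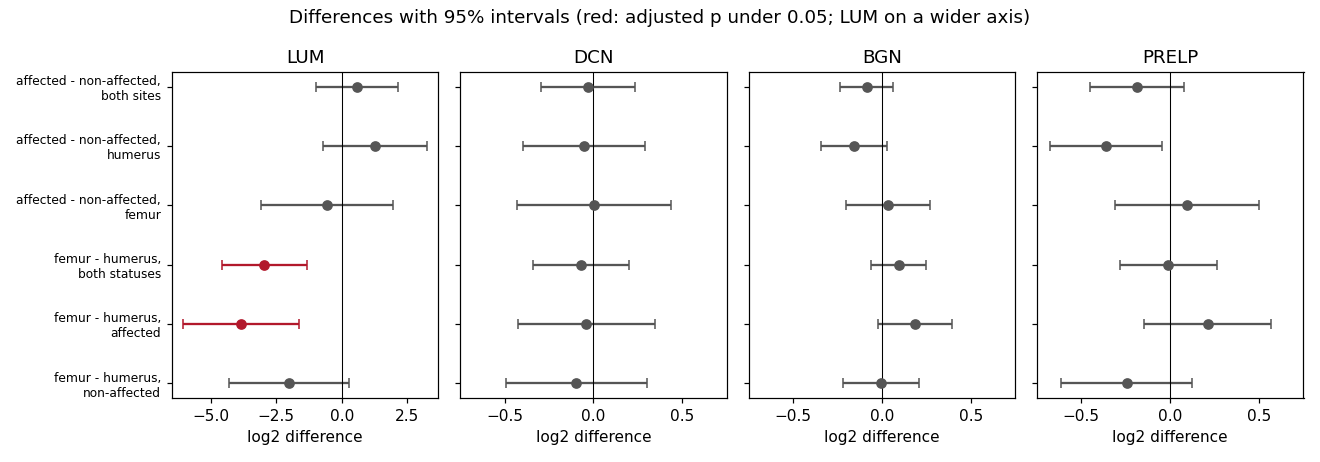
Differences in log2 intensity with 95% intervals for the 4 tested probe sets in each comparison (status: affected minus non-affected; joint: femur minus humerus). The LUM difference between the joints is -2.96 with an interval of -4.58 to -1.35, and the intervals of DCN, BGN and PRELP in the same comparison include 0.

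By group mean the order for LUM was affected humerus (10.62 ± 1.02), non-affected humerus (9.34 ± 2.09), non-affected femur (7.33 ± 2.54) and affected femur (6.76 ± 1.99; SD). For BGN the order was affected femur (13.44 ± 0.09), non-affected humerus (13.41 ± 0.08), non-affected femur (13.41 ± 0.17) and affected humerus (13.26 ± 0.17). DCN ran from non-affected humerus (13.09 ± 0.38) over affected humerus (13.04 ± 0.25) and affected femur (13.00 ± 0.36) to non-affected femur (12.99 ± 0.16). PRELP ran from non-affected humerus (13.21 ± 0.15) over affected femur (13.06 ± 0.17) and non-affected femur (12.96 ± 0.20) to affected humerus (12.85 ± 0.41). No neighbours in any of these orders lay more than 1 pooled SD apart.

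Relations among the members were taken within a joint, with affected and non-affected samples together. BGN and PRELP moved together in the humerus. In the 13 humeral samples Pearson's r was 0.92 (permutation p = 5.0e-05, adjusted p = 6.0e-04 over 12 relations among the 4 genes) and Spearman's rho 0.88 (permutation p = 1.9e-04, adjusted p = 0.0023). Without the 2 samples farthest from the BGN median, r was 0.71. In the 8 femoral samples r was 0.68 (exact permutation p = 0.0653, adjusted p = 0.196). BGN and LUM had r of -0.64 in the humerus (permutation p = 0.0474, adjusted p = 0.196) and rho of -0.58, and LUM and PRELP had r of -0.58 (adjusted p = 0.196). Neither relation passed after adjustment. DCN and LUM, neighbours on chromosome 5, had r of -0.13 in the humerus and 0.50 in the femur.

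**Figure D4:**
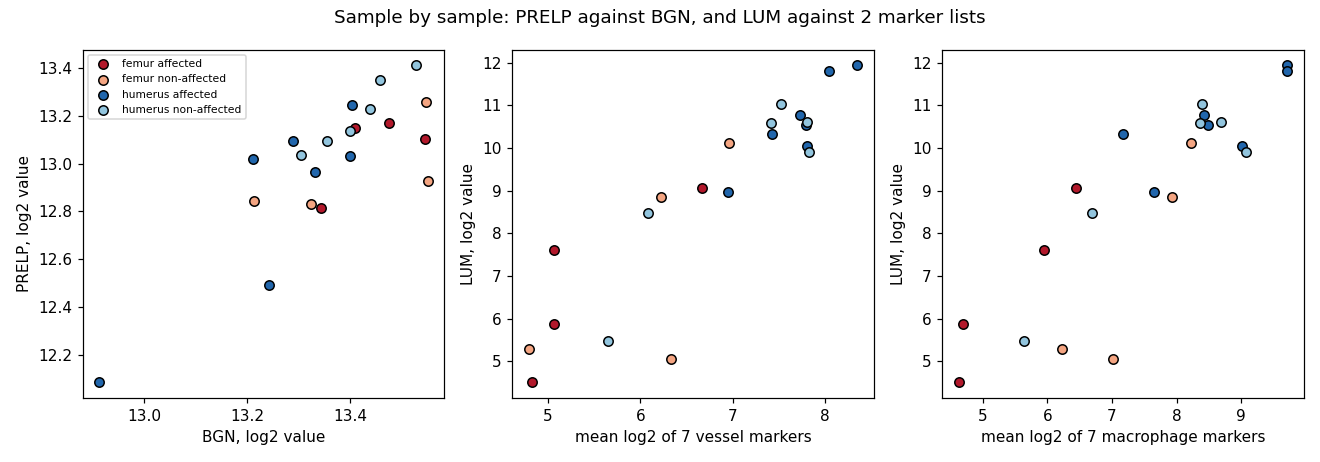
Values per sample of PRELP against BGN, and of LUM against the vessel and macrophage marker means, in log2 intensity, with femoral and humeral samples marked apart. BGN and PRELP rise together in the 13 humeral samples (r = 0.92), and LUM rises with the vessel marker mean there (r = 0.92). The rank relation of LUM with the vessel mean (rho = 0.65) did not pass after adjustment, and r was 0.77 without the 2 farthest samples.

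LUM is made by fibroblasts, bone cells and other connective tissue cells besides chondrocytes, so its level was set beside markers of other cell types, a comparison chosen after the data were seen. In bulk RNA, fewer cells of a type and less RNA per cell cannot be told apart. The mean of the 7 vessel markers named on the array, of 8 listed, had a lowest, median and highest value of 4.83, 5.07 and 6.66 in affected femur, 4.79, 6.28 and 6.96 in non-affected femur, 6.95, 7.79 and 8.35 in affected humerus, and 5.65, 7.47 and 7.82 in non-affected humerus. VWF, 1 of these vessel markers, was at the floor in 3 of 4 affected femoral and 1 of 4 non-affected femoral samples. It was also at the floor in 0 of 7 affected and 1 of 6 non-affected humeral samples. The 7 macrophage markers, of 10 listed, had 4.62, 5.32 and 6.44 in affected femur, 6.23, 7.47 and 8.22 in non-affected femur, 7.18, 8.48 and 9.71 in affected humerus, and 5.63, 8.38 and 9.08 in non-affected humerus. Between the joints, limma called 5744 of all 16799 tested probe sets lower in the femur and 2963 higher, 51.8% together. Of 6 tested vessel markers 5 were called lower and 1 higher (ESAM), of 6 bone markers 4 lower and 1 higher (DMP1), and of 5 osteoclast markers 4 lower and 1 higher (CALCR). Of 7 macrophage markers 6 were called lower and 0 higher, and all 6 neutrophil markers were called lower. Of 7 markers of fibrous tissue and synovium 3 were called lower and 1 higher, of 6 cartilage markers 2 lower and 1 higher, of 4 fat markers 2 each way, of 3 erythroid markers 1 lower, and of 5 muscle markers 4 higher. The median difference was -2.30 for the vessel, -1.97 for the macrophage, -2.61 for the neutrophil and -2.17 for the bone list, against -0.12 over all tested probe sets. Within affected cartilage 7 of 7 macrophage, 5 of 6 neutrophil and 5 of 6 vessel markers were called lower. Of all 16799 probe sets 4137 were called lower there, and 38.5% in either direction. Within non-affected cartilage 0, 0 and 1 of these markers were called lower, against 4207 of all probe sets (36.6% in either direction). Bone markers gave 4 and 2 of 6, osteoclast markers 4 and 1 of 5. Vessel and osteoclast lists each had 1 higher in either status. Cartilage markers had 2 higher and 0 lower in affected, and 0 higher and 3 lower in non-affected cartilage. No marker of these lists was called for the interaction. The non-affected and interaction counts include non-affected humerus 5, and marker counts without it are not given. The part of these markers in the LUM difference was not tested.

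Sample by sample, LUM rose with the vessel mean in the humerus with r of 0.92 (permutation p = 3.0e-05, adjusted p = 6.0e-04 over 20 relations) and rho of 0.65 (adjusted p = 0.212), and r was 0.77 without the 2 samples farthest from the median. With the macrophage mean r was 0.87 (permutation p = 1.6e-04, adjusted p = 0.0016), rho 0.64 (adjusted p = 0.212) and r without 2 samples 0.63. The Pearson relations passed after adjustment and the rank relations did not. Non-affected humerus 5, the humeral sample with the lowest LUM, also had the lowest vessel mean (5.65) and macrophage mean (5.63) of that joint. Its bone (6.87), osteoclast (6.85) and fat (6.05) marker means were the lowest of that joint as well, so its low values were not particular to vessel and macrophage markers. In the femur LUM had r of 0.73 with the vessel mean (exact permutation, adjusted p = 0.170), 0.69 with the macrophage mean (adjusted p = 0.200) and 0.81 with the mean of 5 osteoclast markers (exact permutation p = 0.00694, adjusted p = 0.0463). For osteoclast markers rho was 0.76 (adjusted p = 0.230) and r without 2 samples 0.60. With the 8 markers of fibrous tissue and synovium that are named on the array, LUM had r of 0.30 in the humerus. In the femur this r was 0.01. With the fat mean r was 0.73 in the humerus (permutation, adjusted p = 0.053) and 0.60 in the femur (adjusted p = 0.272). With the bone mean r was 0.53 in the humerus and 0.42 in the femur, neither past the threshold. Without the 2 farthest samples r for fat was 0.02 in the humerus and 0.80 in the femur, and for bone -0.13 and 0.11.

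The genes whose values were most like each member over the 21 samples are given as a description, among 5904 other genes. The samples come from both joints, whose arrays differed in the controls, so these correlations carry no p. For LUM they were ADAMTS1, a protease that cleaves large proteoglycans (r = 0.94), MEDAG (0.94) and SQOR (0.93). With the group means taken out they were TMEM150C (0.94) and the class II antigen genes SLA-DQB1 (0.92) and SLA-DRA (0.92). BGN was most like ATP13A2 (0.87), TBX2 (0.84) and FAM131A (0.84), and PRELP most like SLC9A3, CYP2C33 and SLC41A1 (0.82 each). With the group means taken out both were most like SLC9A3 (0.86 for BGN and 0.88 for PRELP). DCN was most like NDFIP1 (0.79), UBE2E2 (0.79) and HOXD8 (0.78), and HOXD8 led with the group means taken out (0.88).

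Other genes of the same biology came from lists of leucine-rich repeat proteins, large proteoglycans, collagens, sulphation enzymes, receptors and proteases. For status over both joints, in the humerus and in the femur, 0 members of these 7 lists were called. The same calls over all tested probe sets came to 0%, 0% and 1.14%, so the 0 does not set these lists apart. Over both joints TGFB3, a ligand that DCN and BGN can bind, differed by -0.46 (adjusted p = 0.597) and ASPN by 1.07 (adjusted p = 0.631). Between the joints, 1 of the 3 tested small leucine-rich repeat proteins was lower in the femur. It was ASPN (asporin), which differed by -1.80 (adjusted p = 0.0027), while TSKU differed by -0.28 (adjusted p = 0.0714) and OPTC by 0.11 (adjusted p = 0.415). Mean ASPN was 7.95 ± 0.72 in affected femur against 5.63 ± 0.52 in non-affected femur (SD, n = 4 each), and 8.77 ± 1.07 in affected humerus against 8.47 ± 1.23 in non-affected humerus (SD, n = 7 and 6). Its status difference of 2.32 in the femur missed the threshold (adjusted p = 0.0750).

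Of 5 tested large proteoglycans and partners, 4 were lower in the femur and 0 higher, with a list median of -0.93 against -0.12 over all tested probe sets. They were SRGN (-3.22, adjusted p = 0.0004), the intracellular proteoglycan of blood-derived cells, VCAN (versican; -1.69, adjusted p = 0.0008), the link protein HAPLN1 (-0.93, adjusted p = 0.0049) and ACAN (-0.37, adjusted p = 0.0066). ACAN did not pass after quantile normalisation (-0.08, adjusted p = 0.529) or median centring (-0.20, adjusted p = 0.139). Of 7 fibril collagens 1 was higher, COL5A1 (0.80, adjusted p = 0.0005), and 1 was lower, COL1A2 (-0.39, adjusted p = 0.0172), which did not pass under either scaling. None of 7 tested enzymes of chondroitin and dermatan sulphate and none of 4 of keratan sulphate was called. DSE, the dermatan sulphate epimerase, differed by -0.40 (adjusted p = 0.0642).

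Among 14 tested receptors and growth factors that the core proteins bind, 2 were higher in the femur and 4 lower. TGFB3 (0.58, adjusted p = 0.0018) and the collagen receptor subunit ITGA2 (0.40, adjusted p = 0.00011) were higher. TLR4, a receptor for soluble BGN, differed by -1.67 (adjusted p = 0.00015), ITGB1 by -0.68, TGFB2 by -0.61 and TLR2 by -0.56 (adjusted p = 0.0137), and TLR2 did not pass under either scaling. Of 12 tested proteases and inhibitors 6 were lower in the femur and 0 higher, with a list median of -0.57. ADAMTS1 differed by -2.49 (adjusted p = 0.00036), the collagenases MMP13 and MMP1 by -1.43 and -1.90, MMP3 by -2.02, MMP9 by -0.87 and the inhibitor TIMP3 by -0.71, with an adjusted p of 0.0425 for MMP1 as the highest. MMP1 did not pass under either scaling. All of these counts stand beside the 51.8% of probe sets called between the joints and beside the difference in hybridisation controls, whose part was not tested.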

How the data were processed

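RNA of pig articular cartilage was measured on 23 arrays. The authors deposited 1 log2 value per probe set and array, with a floor at 4. GCOS 1.1.1 is named, per the submitters' processing notes; how the arrays were normalised is not stated there. Symbols came from the platform annotation, and 9989 gene IDs matched the RefSeq table.

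Array pairs of 1 group whose values differed by an SD under 0.25 (affected humerus 5 and 6, non-affected femur 1 and 2) were averaged, leaving 21 samples. After removal of 124 controls and of probe sets under the 30th percentile (5.30), 16799 were fitted with limma 3.58.1 (lmFit, eBayes) in R 4.3.3. Status was tested with joint in the model, then within joints in a fit of 4 group means, with the interaction, and joint was tested with status in the model. P-values were two-sided and adjusted by Benjamini-Hochberg over all tested probe sets; a call is an adjusted p under 0.05. The fit was tested on simulated data.

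Correlations used 100000 permutations, or exact ones in the femur (two-sided). Genes outside the 4 were mostly named by rule. These were tested genes of the small leucine-rich list, members of the other lists called between the joints, and the 3 genes most like each member. DSE and the status differences of TGFB3 and ASPN were picked from results that were not called. Markers were named after their values were seen. The members and lists were chosen with earlier results of these data known; relations of LUM to cell markers, and list genes under other scalings, were added after the data were seen. Array number limits the precision. Alternatives covered scaling, filters, arrays kept apart, array weights, probe set choice and each sample left out. No sequences were used here.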

Additional observations from a re-analysis of the deposited data

Results flagged for a closer look

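BGN in affected humerus 2 was far below the other affected humeral samples, at 12.91 against a group median of 13.29. PRELP was also lowest in that sample, at 12.09. The test for a distant sample covered 19 sets of values, 1 for each group of a probe set, and this was the 1 that passed; chance alone gives about 1 in 20.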

How the results depend on the processing

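The LUM difference between the joints, overall and in affected cartilage, kept its direction and call under every alternative run, and no status or interaction call of a member arose. Without 1 sample, LUM between the joints ran from -3.46 to -2.52, and in affected cartilage from -4.62 to -3.11. Between the joints, quantile normalisation gave DCN 0.22, BGN 0.38, PRELP 0.29 and 3 called members, and median centring DCN 0.10, BGN 0.26, PRELP 0.16 and 2. In affected cartilage these were DCN 0.23, BGN 0.50, PRELP 0.49 and 3, and DCN 0.12, BGN 0.35 and 2. In non-affected cartilage quantile normalisation gave DCN 0.22, BGN 0.26, PRELP 0.0782 and 1 call (BGN), centring DCN 0.0851 and BGN 0.178, and array weights BGN 0.0055, LUM -2.57 (adjusted p = 0.048) and 1 call (LUM). For DCN, status in the femur was -0.0156 quantile normalised, -0.0327 centred, -0.00427 with array weights and -0.11 with both probe sets averaged, which gave 0.0172 in the humerus and -0.13 for the interaction. BGN status in the femur was -0.00245 centred. Averaging brings in the DCN probe set at the floor; the other causes were not tested.

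Leaving out 1 sample gave ranges that crossed 0 for DCN status over both joints (-0.108 to 0.00392) and in the femur (-0.15 to 0.11), BGN (-0.0301 to 0.0822) and LUM (-1.33 to 0.37) status in the femur, the DCN interaction (-0.10 to 0.19), PRELP between the joints (-0.0802 to 0.0301), DCN in affected (-0.194 to 0.0674) and BGN in non-affected cartilage (-0.0527 to 0.0595). LUM in non-affected cartilage ran from -2.94 to -1.26, with 0 to 1 call. Calls over all probe sets ran from 0 to 22 for status over both joints (0 in the main model), from 4 to 621 in the femur (192) and from 14 to 224 for the interaction (45), in each highest case but the first with arrays kept apart. No paired analysis was possible because the labels do not pair the samples. The number of arrays, and LUM values near the floor in the femur, limit the sizes given.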
